A study of Brassica napus with 6 samples.

Results

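The genes described here lie in an inner block of chromosome C01 of oilseed rape (Brassica napus) and in the matching block of chromosome A01. Members were selected by gene name: C01 genes from BnaC01g027762.4DH to BnaC01g033230.4DH and A01 genes from BnaA01g020930.4DH to BnaA01g023980.4DH, both ends included. These ends were chosen with the difference between the hairy and the glabrous line in view, so the values of that difference are given as a description and with no test of the members. The rule found 870 genes of 145279, of which 563 were C01 genes and 307 were A01 genes. RNA came from single, very young leaves (the third of the plant) of DH6-47, a hairy doubled haploid line with about 600 trichomes per leaf, and of DH6-110, a glabrous one. Both lines were described as near-isogenic, derived from a cross of Quantum/LG3260 with CN113136, and grown under 16 h of day and 8 h of night. Each line is 1 genotype, so a difference between leaves is a difference between these lines, and separate leaves are the only replicates. Values were held for hairy leaves 1 and 3 and for glabrous leaves 1 and 3, while leaf 2 of each line was not analysed here.

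Oilseed rape is an allotetraploid that carries an A genome from Brassica rapa and a C genome from Brassica oleracea. Most genes are therefore present as an A copy and a C copy, called homoeologues, and chromosomes A01 and C01 correspond over much of their length. Stretches of one genome are known to be lost, or replaced by the matching stretch of the other, in many oilseed rape lines, and RNA levels that fall for neighbouring genes of one chromosome while their partners rise are one sign used to look for such events. DNA was not measured here, so copy number and exchange were not tested.

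Levels were given as TPM, the abundance of a transcript relative to all transcripts of the leaf, which is scaled to transcript length and allows copies to be set side by side. Gene values summed to between 954250 and 962645 TPM per leaf, and read depth was not given, so no counting interval can be attached. Between 39919 and 43209 genes reached 1 TPM in a leaf. Leaf identity was visible in the markers: LHCB1.1, an antenna protein of photosystem II, summed to between 1339 and 3125 TPM over its copies, while the shoot meristem gene STM, the root hair gene RHD6 and the floral genes AG and AP3 stayed under 1 TPM in all 4 leaves. The code for RBCS1A, a small subunit of Rubisco, was listed at 0 in 3 leaves and at 2.03 TPM in the other. How reads shared by near-identical copies were assigned is not given in the sources used here, so the split between close copies is uncertain.

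Over the C01 block, RNA was lower in the hairy line across much of the block, with summed levels of 914 and 960 TPM in the hairy leaves and 2375 and 2266 TPM in the glabrous leaves. A01 members went the other way, from 1888 and 1547 TPM in the glabrous leaves to 2733 and 2658 TPM in the hairy leaves. Of the 563 C01 members, 350 were listed at 0 in all 4 leaves, and 75 (13.3%) had a transposon-like annotation, as had 11.05% of all genes. Of the same 563, 146 reached 1 TPM in at least 2 leaves and entered the limma fit over all genes, and 417 did not. Of these 146, 74 were called lower in hairy leaves, 4 were called higher and 68 were not called, at an adjusted p under 0.05. Over all 44247 genes fitted, 4.48% were called lower and 5.24% higher. Since the block was selected on this same contrast, nothing is read from its share. Leaving out hairy leaf 1 or hairy leaf 3 left 33 genes called lower in each case, and leaving out either glabrous leaf left 58.

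The median fitted change of the 146 C01 genes was -1.42 on the log2(TPM + 1) scale, against 0.03 over all fitted genes. Of the 146, 69 had a hairy mean under 1 TPM, so they could not pass the filter without a glabrous leaf at 1 TPM or more. The median of the C01 block was -0.54 with no filter and -0.56 with a pseudocount of 5. In the A01 block 101 of 307 members were fitted, with a median change of 0.46. None of them was called lower and 4 (3.96%) were called higher, a share below that of all genes. Leaving out hairy leaf 1 or hairy leaf 3 left 1 called higher in each case. At an unadjusted p under 0.05, 2 of the 101 were lower and 20 higher, while 7.50% and 9.88% of all fitted genes were. The hairy leaves lay wholly below the glabrous leaves for 93 of the 146 C01 genes, where 17.4% of all fitted genes did so. They lay wholly above for 47 of the 101 A01 genes, where 21.4% of all fitted genes did so. On the rest of A01, 1963 genes were fitted, 35.2% lay wholly above, 15.5% were called higher and the median change was 0.17. Higher levels in hairy leaves were thus also seen outside the block, but not evenly along A01. Of the 25 fitted genes next to the block start, 24% lay wholly above, 0 were called higher and the median change was -0.05. Of the 25 next to its end, 28% lay wholly above, 3 were called higher and the median change was 0.15. On the rest of C01, 1935 genes were fitted, 145 were called lower and 78 higher, and the median change was -0.05. In bulk leaves, fewer cells of a type and less RNA per cell cannot be told apart.

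At its ends the C01 block began and stopped with single genes rather than with runs. The first member, BnaC01g027762.4DH, whose best match is a LINE-1 retrotransposon protein, stood at 0.0467 and 0 TPM in hairy leaves and at 3.99 and 4.58 TPM in glabrous leaves. The last member, BnaC01g033230.4DH, matched an uncharacterized non-coding RNA and was on the opposite side, at 9.59 and 9.54 TPM in hairy leaves against 0.238 and 0 TPM in glabrous leaves. Between them and their neighbours the step was sharp. Just inside, vacuolar iron transporter genes BnaC01g027800.4DH and BnaC01g027810.4DH changed by -0.92 (SE 0.59) and -0.35 (SE 0.41), and neither was called. Just outside the start, the acyl-CoA binding protein gene ACBP2 stood at 7.22 and 4.51 TPM in hairy leaves and at 6.78 and 7.07 TPM in glabrous leaves. Just outside the end, the TSO1-like gene TCX2 stood at 18.2 and 7.07 TPM in hairy leaves and at 17.5 and 25.3 TPM in glabrous leaves. No gene among the nearest 3 fitted genes outside either end of the C01 block was called. Over all fitted genes 4.48% were called lower and 5.24% higher, so nothing is read from so few genes. Of the 25 fitted genes next to the block start 1 was called higher, and of the 25 next to its end 2 were. None of either set was called lower.

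Nor did the A01 block have an edge of its own in expression. Its first fitted member, a match to AT4G28025 of unknown function, stood at 3.49 and 8.60 TPM in hairy leaves and at 5.91 and 6.35 TPM in glabrous leaves. The last, a match to SECE1 of the thylakoid protein transport machinery, stood at 6.94 and 6.36 TPM in hairy leaves and at 14.8 and 7.43 TPM in glabrous leaves. Outside these ends, the ubiquitin-conjugating enzyme gene UBC9 changed by 0.20 (SE 0.37) and a pentatricopeptide repeat gene, a match to AT4G14820, by 0.15 (SE 0.50). Copies of MTM1 and TRY stood just before the A01 block and outside it, while their C01 copies were members.

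Inside the C01 block the low genes fell into 2 runs. The runs were set after the values were seen, as successive fitted genes with a change of -1 or lower, at most 1 exception in a row and at least 10 low genes, and they carry no test. The first low stretch ran from BnaC01g028440.4DH to BnaC01g030140.4DH and held 171 genes, 39 of them fitted, with a median change of -2.69. The second ran from BnaC01g030640.4DH to BnaC01g032050.4DH and held 143 genes, 35 of them fitted, with a median change of -3.16. In these stretches 69 of 74 fitted genes were called lower and none higher, where 4.48% and 5.24% of all fitted genes were. As the runs were set on low values of this same contrast, nothing is read from that share. Summed over every gene of the first stretch, levels were 17.6 and 16.2 TPM in hairy leaves and 735 and 670 TPM in glabrous leaves, so the hairy mean was 2.41% of the glabrous mean. In the second stretch they were 26.1 and 15.6 TPM against 536 and 657 TPM, or 3.50%.

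**Figure D1:**
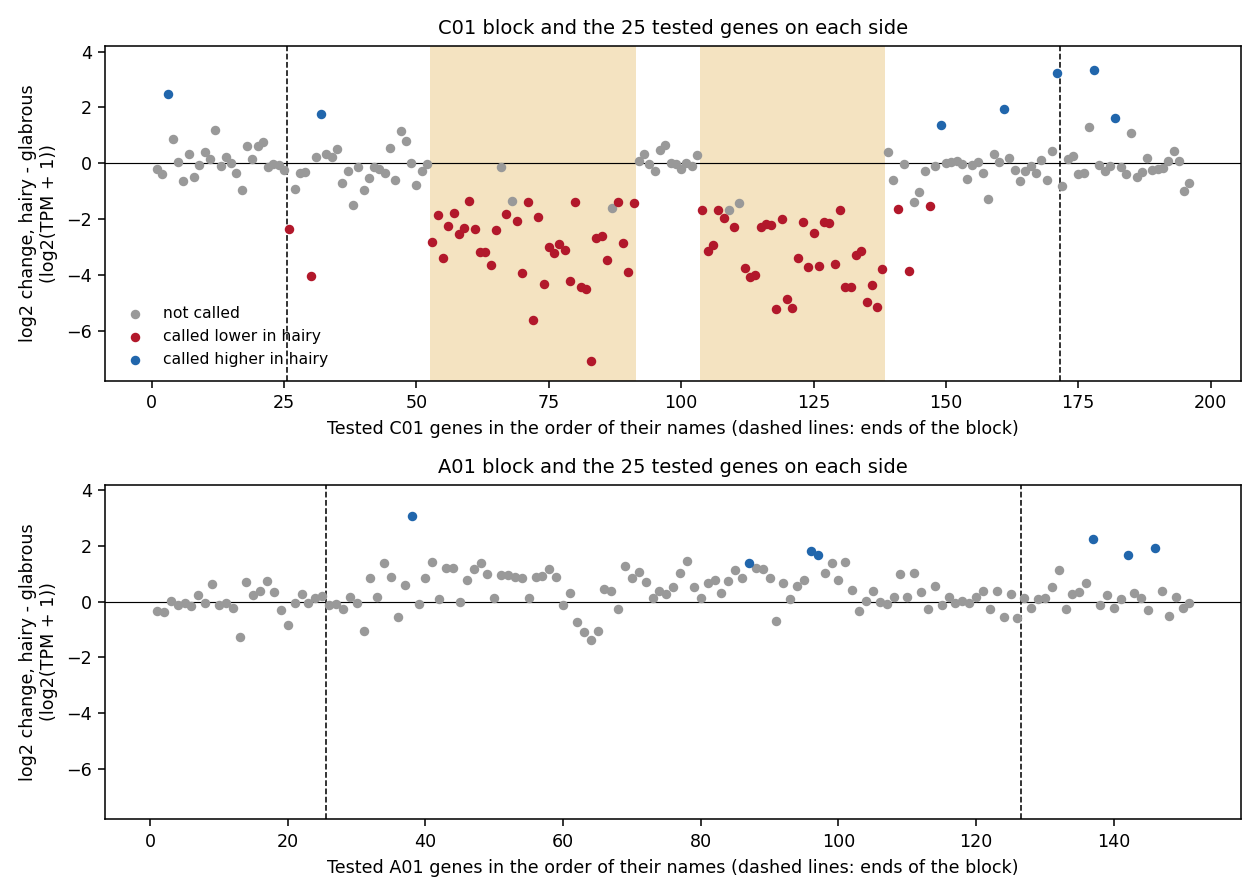
Fitted log2 change (hairy minus glabrous, log2(TPM + 1)) of each fitted gene in name order along C01 (top) and A01 (bottom), with 25 fitted genes on each side; dashed lines mark the block ends, shading the low stretches, and colour the limma call. On C01, 73 of the 74 genes in the shaded stretches lie below -1, which follows from the rule that set the stretches. The C01 genes before, between and after them have median changes of -0.27, 0.02 and -0.09. The A01 genes lie mostly between 0 and 1.5 in the middle of their block.

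By the rule that set the low stretches, each border falls between a low fitted gene and a neighbour that is not low. The step at a border therefore follows from that rule, and the values there are given as a description. The first stretch opened within a pair of adjacent copies of AT4G17480, an alpha/beta-hydrolase gene. BnaC01g028430.4DH, just outside, stood at 12.7 and 15.2 TPM in hairy leaves and at 13.5 and 14.8 TPM in glabrous leaves. BnaC01g028440.4DH, just inside, stood at 0.419 and 0.131 TPM in hairy leaves and at 5.80 and 11.1 TPM in glabrous leaves. The outer copy was thus level between the lines and the inner copy was not. At the other end of the first stretch, a C2H2-like zinc finger gene, BnaC01g030140.4DH, was listed at 0 in both hairy leaves and at 1.68 TPM in both glabrous leaves. Its next fitted neighbour, the protein phosphatase 2C gene BnaC01g030160.4DH, stood at 9.34 and 7.88 TPM against 6.72 and 9.43 TPM.

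Between the stretches lay 51 genes, 12 of them fitted, of which none was called. As 4.48% of all fitted genes were called lower and 5.24% higher, nothing is read from that count. Their median change was 0.02 and their range -0.29 to 0.67. Among them were ATG8F, an autophagy ubiquitin-like protein, at 14.0 and 14.9 TPM in hairy leaves and 17.6 and 18.2 TPM in glabrous leaves, and PRMT7, a protein arginine methyltransferase. The second stretch opened with BnaC01g030640.4DH, a ferredoxin hydrogenase-like gene at 1.16 and 0.627 TPM in hairy leaves and 3.58 and 6.92 TPM in glabrous leaves. Its outer neighbour, BnaC01g030630.4DH, stood at 4.52 and 8.06 TPM against 4.64 and 5.00 TPM. The second stretch closed with BnaC01g032050.4DH, a match to AT4G15545 at 0.605 and 0.647 TPM in hairy leaves and 16.2 and 28.3 TPM in glabrous leaves. Next to it, the farnesyltransferase gene BnaC01g032070.4DH stood at 20.1 and 26.2 TPM against 18.2 and 16.2 TPM.

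In 5 fitted genes of the low stretches the change was not called. One of them departed from its surroundings: BnaC01g029050.4DH, a copy of the small GTPase gene RAB2A, stood at 4.43 and 6.82 TPM in hairy leaves and at 5.11 and 7.62 TPM in glabrous leaves. The other 4 were lower in hairy leaves, with changes from -1.37 to -1.68. They included SPK1 (AT4G16340) and FCA (AT4G16280), both named here after their values were seen. SPK1 is an exchange factor of ROP GTPases, and Arabidopsis plants without it have unbranched trichomes. Its C01 copy, BnaC01g030810.4DH, stood at 4.50 and 0.668 TPM in hairy leaves and at 5.58 and 13.3 TPM in glabrous leaves. Its A01 copy stood at 25.7 and 12.7 TPM against 7.35 and 15.6 TPM, with overlap between the lines. FCA, an RNA-binding regulator of flowering time, had a C01 copy at 2.88 and 1.56 TPM in hairy leaves and 5.44 and 10.0 TPM in glabrous leaves.

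Genes on in a single line were counted as those at 1 TPM or more in both leaves of a line and under 0.1 TPM in both leaves of the other. In the C01 block 31 genes were on in the glabrous line only and 2 in the hairy line only, while over all 42763 genes on in both leaves of some line the shares were 1.73% and 1.43%. Of the 31, 27 lay in the low stretches, 2 before them and 2 after. The A01 block had no gene on in the glabrous line only and 1 on in the hairy line only, BnaA01g021422.4DH, which has no Arabidopsis match and stood at 1.07 and 1.57 TPM in hairy leaves.

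Among the C01 genes on in the glabrous line only, the most abundant with an Arabidopsis match was a copy of ACX1, an acyl-CoA oxidase of peroxisomal beta-oxidation that in Arabidopsis takes part in jasmonate synthesis. It stood at 0.0753 and 0.0293 TPM in hairy leaves and at 16.5 and 32.04 TPM in glabrous leaves. A copy of ATHB2, a homeodomain-leucine zipper factor of the shade response, was listed at 0 in both hairy leaves and at 16.7 and 25.6 TPM in glabrous leaves. A copy of HSBP, which binds heat shock factors, was likewise listed at 0 in hairy leaves and at 25.9 and 16.3 TPM in glabrous leaves. HSBP had no partner in the A01 block, and its other copies did not pass 1.26 TPM in any leaf. A copy of FIP2, named for its interaction with FRIGIDA, was listed at 0 in hairy leaves and at 12.8 and 15.7 TPM in glabrous leaves. An ABC transporter gene (AT1G54350) stood at 0.0836 and 0.0326 TPM against 11.6 and 15.7 TPM. All of these 5 genes lay in the low stretches.

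The sixth, a copy of MTM1, a mitochondrial carrier-family protein tied to manganese delivery in Arabidopsis, lay before them in a cluster of 4 MTM1 copies. BnaC01g027850.4DH stood at 0 and 0.0955 TPM in hairy leaves and at 14.2 and 18.7 TPM in glabrous leaves. BnaC01g027920.4DH had the reverse pattern, at 3.31 and 1.72 TPM in hairy leaves and at 0 in both glabrous leaves. The other 2 copies of the cluster stayed under 1.46 TPM. Neighbouring copies of a single gene were thus listed as on in opposite lines, but the split of reads between such close copies is uncertain. Interleaved with this cluster were 4 copies of TRY, an R3-type MYB protein that represses trichome formation in Arabidopsis. Of these, 2 were listed at 0 in all leaves and 2 were fitted, and neither was called. BnaC01g027922.4DH stood at 7.69 and 6.29 TPM in hairy leaves and at 6.45 and 4.52 TPM in glabrous leaves. BnaC01g027882.4DH stood at 1.20 and 2.81 TPM against 1.94 and 1.09 TPM, and for both genes the lines overlapped.

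To follow both copies of a gene, members were paired by their Arabidopsis gene code, which the deposited annotation gave for 352 C01 and 230 A01 members. Exactly 1 C01 and 1 A01 member shared a code in 143 cases, 125 of which were codes of Arabidopsis chromosome 4. Ordered along C01, 139 of the 142 steps to the next pair also moved up A01, so the blocks ran in parallel. Of the pairs, 99 had a mean summed level of at least 1 TPM and are called expressed: 48 in the low stretches and 51 elsewhere in the C01 block. A further 124 codes occurred only in the C01 block, 38 only in the A01 block, and 25 in both with more copies.

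In the low stretches the C01 copy almost disappeared from the pair in hairy leaves. The C01 copy made up a median of 0.837% and 0.111% of the pair sum in the hairy leaves and 53.0% and 53.5% in the glabrous leaves. For the 51 pairs outside the stretches the medians were 56.9% and 51.7% in hairy leaves and 57.9% and 56.3% in glabrous leaves. The hairy mean share was under 10% in 42 of the 48 pairs of the stretches and in none of the 51 pairs outside. Because the stretches were set by low C01 values in these same hairy leaves, this contrast follows largely from that choice. In the glabrous line the mean share lay between 30% and 70% in 40 of the 48 pairs and in 37 of the 51. The hairy leaves had wholly lower shares than the glabrous leaves in 47 of the 48 pairs. Outside the stretches they did so in 19 of the 51, where 8 had wholly higher shares. No such count was made over all homoeologue pairs of the genome, so nothing is read from these counts.

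**Figure D2:**
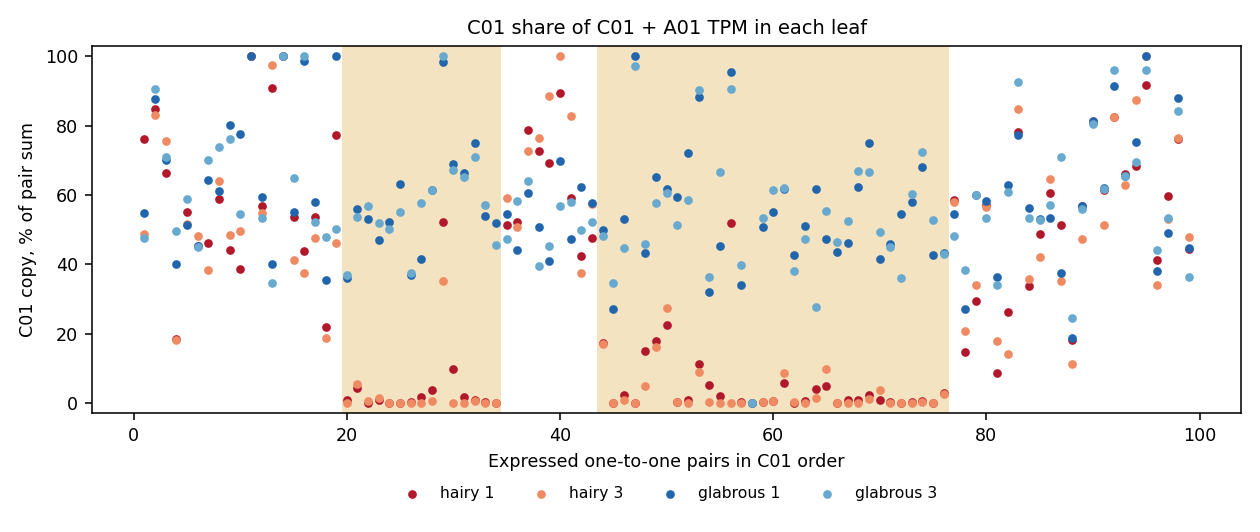
C01 copy as a percent of the C01 plus A01 TPM for the 99 expressed one-to-one pairs in C01 order, with 1 point per leaf; shading marks the low stretches. The mean of the red hairy points is under 10% for 42 of the 48 shaded pairs. The blue glabrous points there have medians of 53.0% and 53.5%, and their mean lies between 30% and 70% for 40 of the 48 pairs. Outside the shading the leaves of both lines overlap for 24 of 51 pairs.

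The A01 partners of the low genes were mostly on the higher side in hairy leaves. Summed over the pairs, the level of both copies was similar in the lines, though not in every pair. Few of these partners were called: of the 64 A01 partners, 44 were fitted, 2 (4.55%) were called higher and none lower. Over all fitted genes 5.24% were called higher and 4.48% lower. Summed over the 48 expressed pairs, the C01 copies gave 25.3 and 12.4 TPM in hairy leaves and 944 and 913 TPM in glabrous leaves. The A01 copies gave 1974 and 1916 TPM against 1186 and 899 TPM. Their sums were 1999 and 1928 TPM in hairy leaves and 2131 and 1812 TPM in glabrous leaves, so the lines overlapped in the sum and in neither part. On average the hairy sum was 0.996 times the glabrous sum. The most abundant pair, AT4G16720, made up much of these totals. Over the other 47 pairs the A01 copies were 475 TPM higher in the hairy mean while the C01 copies differed by -608 TPM, and the hairy sum was 0.885 times the glabrous one. The sums of these 47 pairs, at 1130 and 916 TPM in hairy leaves and 1056 and 1256 TPM in glabrous leaves, overlapped between the lines. Per pair, the median change was -2.64 for the C01 copy, 0.85 for the A01 copy and -0.04 for the sum. The lower and upper quartiles for the sum were -0.59 and 0.15. Of the 48 sums, 6 changed by -1 or lower and none by 1 or more. The A01 copy was on the higher side in hairy leaves in 44 of the 48 pairs, and its hairy leaves lay wholly above the glabrous leaves in 33, where the shares were 21.4% of all fitted genes and 35.2% on the rest of A01. Outside the stretches the median changes of the 51 pairs were -0.04, 0.02 and -0.01.

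The 9 expressed pairs between the stretches had C01 copies with changes between -0.11 and 0.67, while 6 of their 9 A01 copies were lower in hairy leaves, with a median A01 change of -0.66. None of these A01 copies was called. The inositol transporter gene INT4 on A01 had the most negative change of the A01 block, at -1.38 (SE 0.52), with 1.75 and 0.315 TPM in hairy leaves and 2.74 and 5.54 TPM in glabrous leaves. An ARM repeat gene (AT4G16490) followed at -1.08 (SE 0.50), with 12.9 and 9.47 TPM against 14.2 and 41.8 TPM, where 1 glabrous leaf stood apart. A gene of unknown function (AT4G16450) changed by -1.05 (SE 0.55) on A01 and by 0.02 (SE 0.50) on C01.

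**Figure D3:**
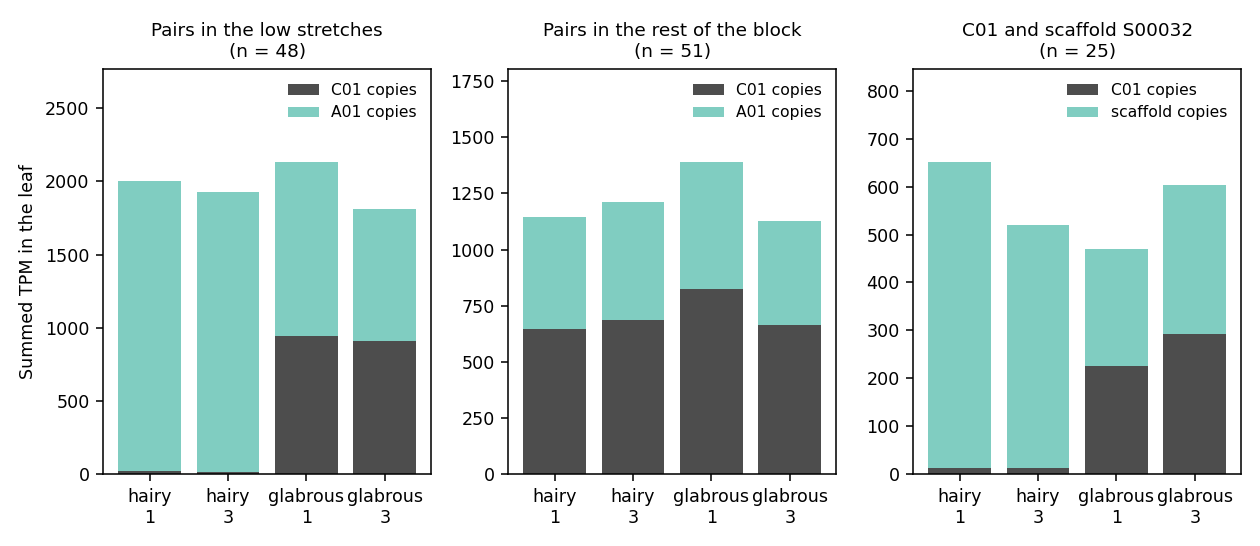
Stacked TPM of the C01 copies (dark) and their partners (light) in each leaf for the pairs in the low stretches, for the pairs in the rest of the block, and for C01 genes paired with scaffold S00032; the vertical scales differ. In the first panel the dark part shrinks from 944 and 913 TPM in glabrous leaves to 25.3 and 12.4 TPM in hairy leaves while the full bars stay between 1812 and 2131 TPM.

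The most abundant pair encoded a ribosomal protein of the L15e family (AT4G16720) and lay in the first stretch. Its C01 copy, BnaC01g029730.4DH, stood at 1.64 and 0.679 TPM in hairy leaves and at 398 and 209 TPM in glabrous leaves. Its A01 copy stood at 867 and 1011 TPM against 677 and 347 TPM. The C01 change of -7.10 (SE 0.43) was the largest of the block, and the sum changed by 0.28 (SE 0.42). As 8 further copies of this code lie elsewhere in the genome, reads may be shared among more than these copies.

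Of the 10 most abundant pairs, 6 lay in the low stretches and showed the same arrangement. For AT4G16155, a dihydrolipoyl dehydrogenase, the C01 copy stood at 0.209 and 0.0407 TPM in hairy leaves and at 41.6 and 40.0 TPM in glabrous leaves, and the A01 copy at 122 and 119 TPM against 80.3 and 60.2 TPM. For IMPA-2 (AT4G16143), an importin alpha of nuclear import, the C01 copy stood at 0.167 and 0.105 TPM against 27.4 and 38.4 TPM, and the A01 copy at 88.1 and 51.8 TPM against 26.7 and 33.5 TPM. For DXS (AT4G15560), the entry enzyme of the plastid isoprenoid pathway, the C01 copy stood at 0.383 and 0.0541 TPM against 25.1 and 70.6 TPM, and the A01 copy at 66.7 and 37.6 TPM against 11.8 and 26.9 TPM. In each of these pairs neither copy overlapped between the lines. The sums changed by 0.13 (SE 0.34), 0.12 (SE 0.39) and -0.25 (SE 0.47), none of them called.

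A GATA-type zinc finger factor (AT4G16141) and an RNA-binding protein (AT4G15770) completed the 6, with C01 changes of -5.18 (SE 0.47) and -4.98 (SE 0.54). Their A01 copies changed by 0.85 (SE 0.41) and 1.39 (SE 0.46). The 4 abundant pairs outside the stretches had no such split. For the ribosomal L27e gene (AT4G15000) the C01 copy stood at 167 and 255 TPM in hairy leaves and at 275 and 96.2 TPM in glabrous leaves, and the A01 copy at 85.6 and 150 TPM against 144 and 50.8 TPM. Spread within a line was wider here than the gap between the lines. The ferredoxin-like gene FdC2 (AT4G14890) changed by -0.25 (SE 0.36) on C01 and by -0.54 (SE 0.38) on A01. A pair matching AT4G15030 of unknown function changed by 0.04 (SE 0.36) and 0.02 (SE 0.44). A pair of unknown function (AT4G28100) was lower in hairy leaves in both copies, by -0.97 (SE 0.38) on C01 and -1.06 (SE 0.38) on A01, and neither was called.

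**Figure D4:**
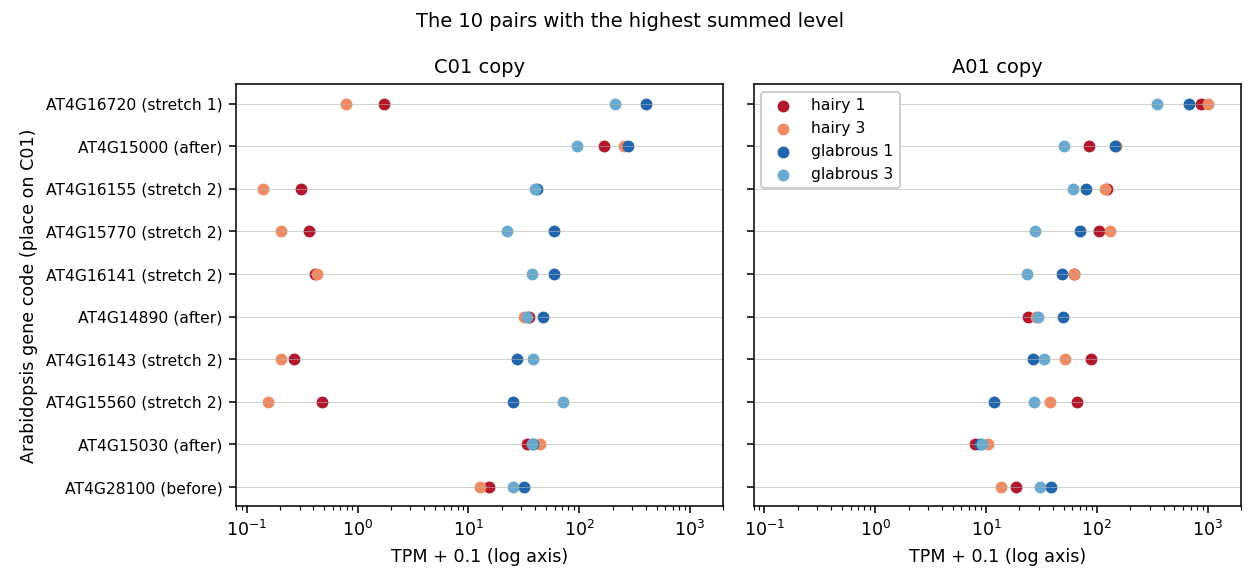
TPM + 0.1 (log axis) of the C01 copy (left) and the A01 copy (right) in each leaf for the 10 pairs with the highest summed level, with the place on C01 in brackets. For the 6 pairs in the stretches the hairy C01 points fall between 0.0407 and 1.64 TPM, while for the other 4 pairs the C01 points of both lines lie between 12.6 and 275 TPM.

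Pair sums were fitted with limma in a table in which all other copies of a code were also summed. Of 100 pair sums that passed the low-value filter, 1 was called, where 2.08% of all 15813 sums were. At an unadjusted p under 0.05, 7 were lower and 2 were higher. The share of all sums at that threshold is not given here, so nothing is read from these 2 counts. Leaving out glabrous leaf 1 gave 3 called sums and leaving out glabrous leaf 3 gave 2. The called one was MES16 (AT4G16690), a methylesterase that in Arabidopsis acts in chlorophyll breakdown. Its C01 copy stood at 0.0906 and 0.0706 TPM in hairy leaves and at 7.28 and 16.6 TPM in glabrous leaves, while its A01 copy did not pass 0.129 TPM in any leaf. The sum was therefore low with the C01 copy, at a change of -3.36 (SE 0.53).

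The next lowest sums belonged to OEP16-2, a channel of the plastid outer envelope, and to HCT, which joins shikimate to hydroxycinnamoyl units on the way to lignin. For OEP16-2 the sum was 0.254 and 1.14 TPM in hairy leaves and 4.10 and 4.29 TPM in glabrous leaves. For HCT the C01 copy stood at 0.880 and 0.137 TPM against 21.5 and 14.4 TPM, while the A01 copy, at 21.0 and 8.73 TPM against 13.3 and 37.8 TPM, overlapped between the lines. Neither sum was called, at changes of -1.66 (SE 0.50) and -1.54 (SE 0.50). On the higher side, a SNARE-associated Golgi protein gene (AT4G14950) after the stretches had a sum of 8.95 and 8.22 TPM in hairy leaves and 0.552 and 2.89 TPM in glabrous leaves. Its change of 1.96 (SE 0.56) came almost wholly from the C01 copy and was not called. Next came the sum of the acyltransferase pair AT4G15400, whose mean was under 1 TPM, at a change of 1.38 (SE 0.44), with 1.79 and 1.45 TPM in hairy leaves and 0 in both glabrous leaves. It was not called either. The sums of AT4G32480 and AT4G28290, both of unknown function, changed by 0.97 (SE 0.47) and 0.80 (SE 0.56).

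Grouped by keywords in their annotation, low C01 genes belonged to many functions. Over all fitted genes, between 3.89% and 6.44% of each of the 8 classes were called lower and between 2.30% and 8.58% higher, and these calls on the members come from the contrast that selected the block. Among transcription factors 10 of 12 fitted C01 members were called lower, with a median change of -2.37 (4.95% called lower and a median of 0.07 over all 3376 genes of the class), while none of 9 A01 members was called, with a median of 0.85. A bHLH factor (AT4G16430) was listed at 0 on C01 in hairy leaves and at 5.35 and 11.4 TPM in glabrous leaves, with an A01 copy at 49.9 and 40.1 TPM against 14.4 and 21.6 TPM. Among ribosome and translation genes 3 of 4 C01 members were called lower and none of 4 on A01 was called. Of the photosynthesis and chloroplast genes 5 of 7 on C01 were called lower, where 6.44% of all 1522 genes of the class were, at a median of -0.25, and 1 of 4 on A01 was called higher. That gene matched AT4G15790, of unknown function and placed in the chloroplast, with an A01 copy at 42.3 and 59.6 TPM in hairy leaves and 20.4 and 8.81 TPM in glabrous leaves. Its C01 copy, in the second stretch, stood at 0.378 and 0 TPM against 33.9 and 17.9 TPM.

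Ubiquitin and proteolysis genes included 6 of 12 C01 members called lower. Among them UBC32, a ubiquitin-conjugating enzyme of the endoplasmic reticulum, stood at 0.161 and 0 TPM in hairy leaves and at 18.3 and 16.6 TPM in glabrous leaves. A papain-type protease gene (AT4G16190) stood at 2.72 and 1.41 TPM against 21.4 and 102 TPM, so its glabrous leaves differed widely. Its A01 copy stood at 21.3 and 14.5 TPM against 2.84 and 11.1 TPM. Of 9 transport genes on C01, 2 were called lower and 1 higher, the ABC transporter gene above among the lower ones. A mitochondrial substrate carrier gene (AT4G15010) after the stretches was not called, at 7.98 and 5.10 TPM in hairy leaves and 15.9 and 18.6 TPM in glabrous leaves. Both kinase genes and both stress and defence genes fitted on C01 were called lower, including the arabinose kinase gene ARA1 at -2.12 (SE 0.52) and an HSP70 family gene (AT4G16660) at -2.87 (SE 0.49). Of 3 cell wall genes on C01, 1 was called lower, while the expansin gene EXPB3, before the stretches, changed by -0.60 (SE 0.39) on C01 and -0.56 (SE 0.43) on A01. The mannanase gene MAN5 (AT4G28320), the last fitted gene before the AT4G17480 copies, changed by -0.29 (SE 0.48) and -0.08 (SE 0.50). No pair sum in any of these classes was called.

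Many genes of the first stretch had no partner in the A01 block but had one on unplaced scaffold S00032, a link found by gene code after the values were seen. The scaffold held 59 genes, 43 with an Arabidopsis code, and 39 of these shared a code with a C01 member. All 25 expressed one-to-one pairs lay in the first stretch, and all 24 steps between neighbours ran in the same order. None of these 25 codes occurred in the A01 block. On A01, 6 genes lay between the members that match AT4G17350 and AT4G16720, where the order of codes skips those of the scaffold. The C01 copies of these 25 pairs summed to 12.8 and 13.0 TPM in hairy leaves and to 226 and 294 TPM in glabrous leaves. The scaffold copies summed to 638 and 508 TPM against 245 and 310 TPM. Their sums were 651 and 521 TPM in hairy leaves and 471 and 603 TPM in glabrous leaves, which overlap.

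Per pair, the median change was -2.37 for C01, 0.70 for the scaffold and 0.04 for the sum. CLPR4, a subunit of the chloroplast Clp protease, had a C01 copy at 0.382 and 0.0594 TPM in hairy leaves and at 56.1 and 61.8 TPM in glabrous leaves. Its scaffold copy stood at 110 and 102 TPM against 71.1 and 80.1 TPM. ACX1 and ATHB2, on in the glabrous line only on C01, had scaffold copies on in every leaf, at 54.1 and 39.2 TPM against 14.4 and 31.1 TPM for ACX1 and at 32.3 and 36.6 TPM against 8.63 and 18.0 TPM for ATHB2. The same held for FIP2, whose scaffold copy stood at 35.1 and 29.4 TPM against 14.9 and 13.0 TPM. SCL13, a GRAS-family factor of light signalling, was an exception in size. Its scaffold copy stood at 98.2 and 63.3 TPM in hairy leaves and at 3.02 and 5.98 TPM in glabrous leaves, its C01 copy at 0.943 and 0.584 TPM against 8.93 and 24.9 TPM, and the sum changed by 1.99. Of 24 fitted scaffold genes 3 (12.5%) were called higher and 1 (4.17%) lower in hairy leaves, where 5.24% and 4.48% of all fitted genes were. The lower one, a Mo25 family gene (AT4G17270), stood at 1.25 and 1.96 TPM in hairy leaves and at 6.10 and 9.75 TPM in glabrous leaves. Its C01 copy stood at 0.348 and 0 TPM in hairy leaves and at 0 in both glabrous leaves. Their sum changed by -1.66.

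On A01, 1 of the 4 members called higher stood near the start of the block and the other 3 close together further on. The first, BnaA01g021230.4DH, a match to AT4G28310 of unknown function, stood at 7.82 and 8.65 TPM in hairy leaves and at 0.204 and 0 TPM in glabrous leaves, at a change of 3.07 (SE 0.45). Its C01 partner, before the stretches, stood at 6.07 and 5.22 TPM against 14.3 and 7.73 TPM, and the pair sums, 13.9 TPM in both hairy leaves against 14.5 and 7.73 TPM, overlapped. A leucine-rich repeat extensin-like gene with no Arabidopsis code, BnaA01g022600.4DH, stood at 50.7 and 51.1 TPM in hairy leaves and at 21.1 and 17.0 TPM in glabrous leaves. The neighbours BnaA01g022870.4DH, the AT4G15790 copy above, and BnaA01g022880.4DH, an exopeptidase gene, changed by 1.82 (SE 0.44) and 1.69 (SE 0.46).

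Outside the low stretches, 5 of 72 fitted C01 genes (6.94%) were called lower and 4 (5.56%) higher, near the 4.48% and 5.24% of all genes. Their median change was -0.09. For 27.8% of these 72 genes the hairy leaves lay wholly below the glabrous leaves, and for 12.5% wholly above. The shares were 17.4% and 21.4% of all fitted genes, and 24.0% and 17.6% on the rest of C01. Those called lower included BnaC01g032110.4DH, a PsbP family protein of photosystem II, at 9.81 and 10.3 TPM in hairy leaves and 38.4 and 28.8 TPM in glabrous leaves. Its A01 partner stood at 23.4 and 20.1 TPM against 25.5 and 19.2 TPM and did not offset it. A gene matching a non-coding RNA, BnaC01g032202.4DH, stood at 0.0807 and 0 TPM against 9.97 and 19.8 TPM. On the higher side, an HXXXD-type acyltransferase gene, BnaC01g032520.4DH, was at 1.79 and 1.39 TPM in hairy leaves and listed at 0 in both glabrous leaves.

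In the authors' deposited table, which tests transcripts, 68 of 275 C01 transcripts with a p-value were lower in hairy leaves and 2 were higher at a false discovery rate p under 0.05. Over all transcripts with a p-value, the authors' deposited table called 2.04% lower and 2.00% higher. Of 171 A01 transcripts in the authors' deposited table, 2 were lower and 2 higher. For the ribosomal L15e copy on C01, BnaC01g029730.4DH, the authors' deposited table gave a log2 fold change of -8.17, and for CLPR4, BnaC01g029130.4DH, one of -8.15.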

How the data were processed

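Single very young leaves of a hairy and a glabrous line were profiled by polyA RNA-seq. Per the submitters' processing notes, reads were trimmed with cutadapt 1.9. Per the file headers, the authors quantified each transcript in each leaf as TPM with CLC software. The aligner, build and read depth they used are unstated in these sources. The authors also deposited the larger group mean as a TPM signal, a signed fold change kept as a score, its log2 value, and p-values with a false discovery rate. Of these, only log2 fold changes and p-values are printed.

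TPM was summed over the transcripts of a gene. Changes are hairy minus glabrous on log2(TPM + 1), fitted with limma 3.58.1 in R 4.3.3 (trend and robust shrinkage, two-sided, Benjamini-Hochberg adjustment) over the 44247 genes that reached 1 TPM in 2 or more leaves. SE is limma's standard error. The fit was tested on simulated data. Pairs share 1 Arabidopsis gene code, with 1 member per block; pair sums were fitted with the remaining copies summed by code. Figures used Python 3.11.15 and matplotlib 3.10.9.

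Members, lists and low stretches were chosen with earlier results of these data known. Adjusted p-values of single members are left out for that reason, and "called" means an adjusted p under 0.05. Named genes were the 3 fitted genes on each side of each block end; the 10 pairs with the highest summed level; up to 6 genes per block and direction on in a single line with an Arabidopsis match; the 4 members per block furthest against its median; the 3 pair sums furthest each way among pairs of at least 1 TPM; 2 pairs per keyword class; and trichome genes in the blocks. Genes at the borders of the stretches, called genes outside them and scaffold copies were added after the values were seen. Labels name 3 leaves per line; leaves are separate samples, but nothing says how plants were grouped, so the p-values measure the spread between these leaves only. Alternatives were leave-one-out fits, a replicate block, other pseudocounts, low-value filters and scalings, and other thresholds for on and off.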

Additional observations from a re-analysis of the deposited data

How the results depend on the processing

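With 1 leaf left out at a time (the lone leaf of a line is then assumed to vary like the others), C01 genes called lower ranged from 33 to 58, C01 genes called higher from 1 to 2 and A01 genes called higher from 1 to 6. The C01 median change ranged from -1.49 to -1.11 and the A01 median from 0.33 to 0.68. Called pair sums ranged from 1 to 3, their median change from -0.25 to 0.12, and C01 genes on in one line only from 34 to 49, A01 ones from 1 to 2. The C01 median was -2.35 with a pseudocount of 0.1, -0.56 with a pseudocount of 5 and -0.54 with no low-value filter, where A01 had a median of 0.27, 2 genes called higher and 2 pair sums were called. Requiring 5 TPM in 2 leaves left 47 C01 genes called lower and 2 higher. Of the 26 fitted sums whose code had no copy outside the blocks, 0 were called. Setting on at 5 TPM gave 14 C01 and 0 A01 genes on in one line only, off at exactly 0 gave 17 on C01, and off under 1 TPM gave 69 and 5. The glabrous C01 share of all expressed pairs was 54.9%, 55.2% for pairs of at least 5 TPM and 55.0% with all members of a code summed per block. Quantile and TMM-like scaling kept each count within 1.5 times its value and each median within the spread between leaves.

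Leaves with the same replicate number did not deviate together (correlation -0.41 over all fitted genes). With the replicate number as a block, 71 C01 genes were called lower and 3 higher, 2 A01 genes were called higher and 1 pair sum was called. The crossed pairing, added after seeing the data, gave 82 C01 genes lower and 5 higher, 2 A01 genes lower and 21 higher, and 9 pair sums called. With no read depth, levels near 0 cannot be told from 0.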
